A study of Mus musculus with 34 samples.

Results

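The genes described are 10 solute carriers of the kidney proximal tubule, taken as a fixed list from the 23509 genes counted in every library. They carry phosphate (*Slc34a1*, *Slc34a3*), glucose and lactate (*Slc5a2*, *Slc5a1*, *Slc2a2*, *Slc5a12*), protons and bicarbonate (*Slc9a3*, *Slc4a4*), and dicarboxylates and sulfate (*Slc13a3*, *Slc13a1*). Kidney polyadenylated RNA was sequenced from 34 C57BL6 mice at P28. *Pkd2*-KO mice received subcutaneous RGLS4326 at 20 mg per kg (n = 11) or PBS (n = 11) on P10, P11, P12 and P19, and strain-matched non-transgenic mice (UNT, n = 12) carried neither the deletion nor a treatment. In the knockout, both groups of which share the same alleles, a Cre driven by the *Pkhd1* promoter removes floxed *Pkd2*, so that the deletion is made in tubule cells where this promoter is active and not in every cell of the kidney. The labels spell the genotype "Pdk2KO". The number of PBS mice follows the labels and is larger than the one in the study's description, which also has a knockout group given a control oligonucleotide that was not analysed here. RGLS4326 is a chemically modified oligonucleotide inhibitor of the microRNA miR-17.

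The proximal tubule reclaims most of the glucose, phosphate and bicarbonate that the glomerulus filters. Carriers on the luminal membrane couple entry of each solute to the inward sodium gradient or exchange sodium for protons, and partners on the basolateral membrane release glucose and bicarbonate to the blood. In bulk RNA from a whole kidney, fewer proximal cells and less of a transcript per cell cannot be told apart, and this holds for every level given here.

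Because the drug is complementary to the miR-17 seed, the annotated 3′UTRs of the transporters were searched for seed matches. Mature members of the miR-17 family are shown from RefSeq on GRCm38.p6, with the seed (bases 2 to 8) in capitals, since the matches are read from it.
mmu-miR-17-5p: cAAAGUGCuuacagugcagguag
mmu-miR-20a-5p: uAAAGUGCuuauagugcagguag
mmu-miR-93-5p: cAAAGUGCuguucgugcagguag
The matches searched were GCACTTTA (8mer), GCACTTT (7mer-m8) and CACTTTA (7mer-A1) on the transcribed strand of the longest annotated 3′UTR in GENCODE M21 on GRCm38. Of the 10 transporters, 3 held a match and none of those was an 8mer. Among 14193 tested genes with an annotated 3′UTR, 21.2% held a match of any kind and 4.26% an 8mer. The 4 matches are printed with the matched letters in capitals, because they are the only ones in these 3′UTRs by this rule. In a 7mer-A1 the last A lies opposite base 1 of the microRNA, outside the seed, and need not pair.
*Slc5a12*, 7mer-A1 at chr2:110646999-110647005 (+): acagctagaaCACTTTActtctctgag
*Slc5a12*, 7mer-A1 at chr2:110647077-110647083 (+): attatgaccaCACTTTAagggcaattg
*Slc2a2*, 7mer-A1 at chr3:28730339-28730345 (+): tgttcacacaCACTTTAgggatcttac
*Slc4a4*, 7mer-m8 at chr5:89239339-89239345 (+): caatcagtacGCACTTTcaggtagtct
A match in letters is not a measured binding site, and the microRNAs themselves were not measured in these libraries.

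Library totals lay between 17603122 and 54981992 reads in genes, and no transporter had fewer than 105 counts in any library, so the spread between mice rather than counting set the precision. The libraries differed in the share of reads outside genes, which was 9.84 to 11.35% in UNT, 5.17 to 8.995% in PBS and 4.94 to 12.0% in RGLS4326 libraries. Reads without a unique alignment made up 22.8 to 25.6% in UNT, 14.8 to 19.4% in PBS and 14.8 to 19.1% in RGLS4326 libraries, with no overlap between UNT and either knockout group, and their part in the differences from UNT was not tested. *Pkd2*, counted over the whole gene, was 219.6 to 337.7 CPM in UNT, 98.0 to 214.5 in PBS and 170.0 to 236.9 in RGLS4326 kidneys, with no overlap between UNT and PBS. CPM are counts per 1000000 reads in genes after TMM scaling. Log2 fold changes are given ± SE with the Benjamini-Hochberg adjusted p of edgeR's quasi-likelihood test, two-sided, over 15644 tested genes, and a gene was called at an adjusted p under 0.05. All 10 transporters passed the filter on low counts. The test measures the spread between mice, each of which gave 1 library.

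Relative to total mRNA, the transporters were lower in cystic kidneys, with 1 exception. In PBS vs UNT, 9 of 10 fell and 0 rose, where 39% of all tested genes fell and 43.1% rose. Their median log2 fold change was -2.17, and that of all tested genes was 0.04. In the same 9 genes, no PBS mouse reached the lowest UNT mouse, a separation seen in 19.8% of all tested genes. *Slc13a1*, the sulfate carrier, was the exception. By the adjusted p of edgeR or DESeq2 0 transporters rose, and at an unadjusted p under 0.05 it was 1 by edgeR, *Slc13a1* (p = 0.045), and 0 by DESeq2.

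**Figure D1:**
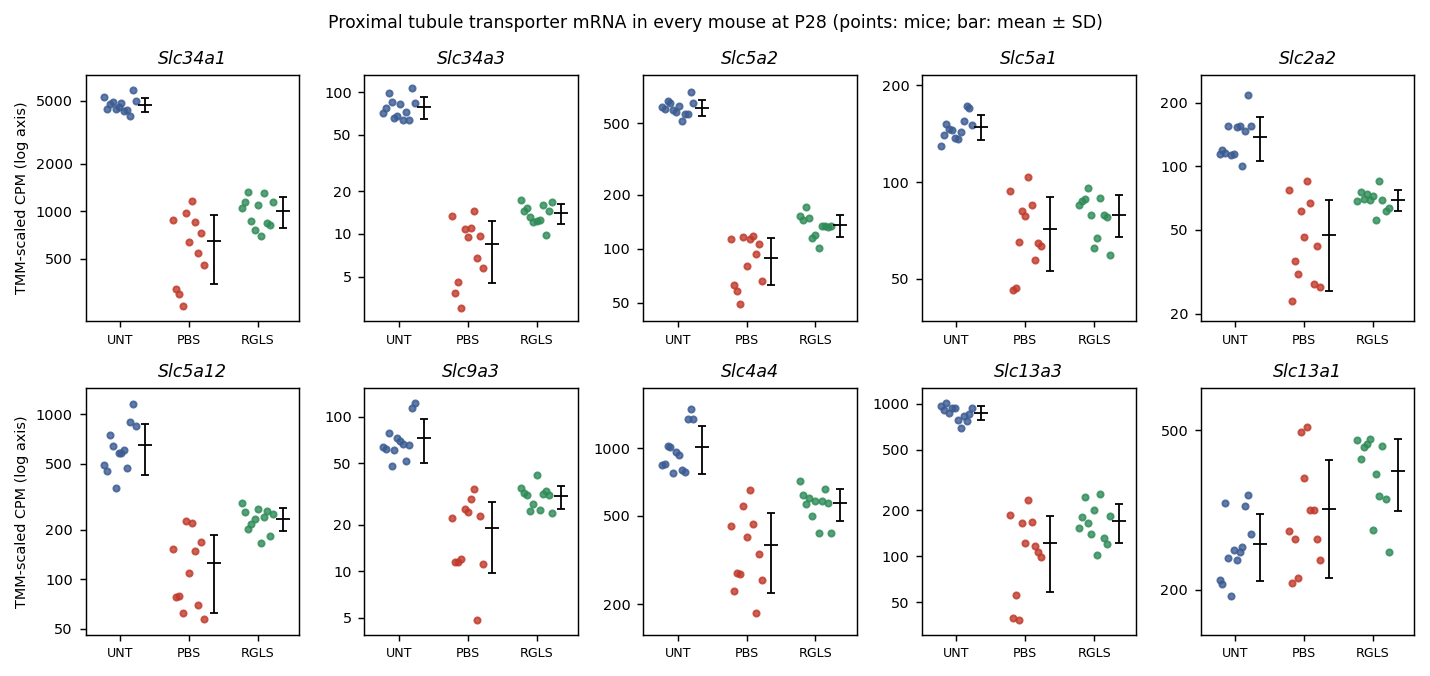
TMM-scaled CPM on a log axis for each of the 10 transporters in UNT (n = 12), PBS (n = 11) and RGLS4326 (n = 11) mice. Each point is a mouse and the bar gives the mean ± SD. For all but *Slc13a1* every knockout mouse of either treatment lies below every UNT mouse, and PBS and RGLS4326 mice overlap in all 10 panels.

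The phosphate carriers were among the genes furthest below UNT. *Slc34a1* encodes the main sodium-phosphate cotransporter of the proximal brush border. It lies at chr13:55398187-55415592 (+), and 545 bases of its exons overlap *Pfn3* on the opposite strand. The lowest, median and highest CPM were 3988, 4677 and 5852 in UNT, 251.3, 638.5 and 1162 in PBS, and 700.4, 1056 and 1318 in RGLS4326 mice. All knockout mice were below all UNT mice, and all 11 RGLS4326 mice were above the PBS median, though only 2 exceeded the highest PBS mouse. *Slc34a1* fell by 2.87 ± 0.20 on the log2 scale in PBS vs UNT (adjusted p = 1.17e-15), to 13.7% of the UNT mean. It rose by 0.64 ± 0.19 in RGLS4326 vs PBS (adjusted p = 0.0116).

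*Slc34a3*, a related sodium-phosphate cotransporter mutated in a hereditary rickets with hypercalciuria, lies at chr2:25228898-25234364 (-). Its CPM were 63.5, 74.7 and 106 in UNT (lowest, median, highest), 3.01, 9.57 and 14.4 in PBS, and 9.80, 14.5 and 17.4 in RGLS4326 mice. The groups separated as for *Slc34a1*, with 6 of 11 RGLS4326 mice above the highest PBS mouse. The fall in PBS vs UNT had the largest estimate of the 10 genes, a log2 fold change of -3.21 ± 0.19 (adjusted p = 1.93e-17). In RGLS4326 vs PBS it rose by 0.74 ± 0.18 (adjusted p = 0.00522).

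Among the glucose carriers, the high-capacity one was furthest below UNT. *Slc5a2* encodes SGLT2, which takes up most filtered glucose in the early proximal tubule and is the target of the gliflozins. It lies at chr7:128265657-128272430 (+), and 597 exon bases overlap *BC017158* on the other strand. The CPM were 512.8, 608 and 749 in UNT, 49.2, 93.7 and 117 in PBS, and 101.3, 134 and 172 in RGLS4326 mice. It was the transporter on which treatment separated the mice most, with 9 of 11 RGLS4326 mice above every PBS mouse and the other two within the PBS range. *Slc5a2* fell by 2.79 ± 0.13 in PBS vs UNT (adjusted p = 1.33e-20) and rose by 0.61 ± 0.12 in RGLS4326 vs PBS (adjusted p = 0.00165).

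*Slc5a1* encodes SGLT1, the high-affinity glucose carrier of the late proximal tubule, and lies at chr5:33104219-33162870 (+). Its CPM were 129, 146 and 173 in UNT, 46.0, 65.1 and 104 in PBS, and 59.2, 79.2 and 95.5 in RGLS4326 mice. Knockout and UNT mice did not overlap, but the range of the RGLS4326 mice lay inside that of the PBS mice. The fall in PBS vs UNT was the smallest of the 9, by 1.05 ± 0.11 (adjusted p = 3.03e-11), to 48.2% of the UNT mean. RGLS4326 vs PBS gave a log2 fold change of 0.15 ± 0.11 (adjusted p = 0.28).

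*Slc2a2* encodes GLUT2, the basolateral carrier by which reabsorbed glucose leaves the cell, and lies at chr3:28697903-28731359 (+). The CPM were 99.9, 132 and 217 in UNT, 23.0, 42.0 and 85.2 in PBS, and 55.9, 69.4 and 85.4 in RGLS4326 mice. Treated mice were packed into a narrow band at the top of the PBS range. *Slc2a2* fell by 1.54 ± 0.17 in PBS vs UNT (adjusted p = 4.66e-10) and rose by 0.55 ± 0.17 in RGLS4326 vs PBS (adjusted p = 0.0172).

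*Slc5a12*, a sodium-coupled carrier of lactate and other monocarboxylates, lies at chr2:110597298-110647779 (+). Its UNT range was the widest of the list as a ratio of highest to lowest (3.24-fold), at 358, 595 and 1157 CPM, against 57.6, 109 and 226 in PBS and 165, 239 and 288 in RGLS4326 mice. No knockout mouse reached the UNT range, and 7 of 11 treated mice exceeded every PBS mouse. It fell by 2.39 ± 0.22 in PBS vs UNT (adjusted p = 2.29e-12). Its rise in RGLS4326 vs PBS, 0.90 ± 0.21 (adjusted p = 0.00402), had the largest estimate of the 10. The 3 genes with a seed match, *Slc5a12*, *Slc2a2* and *Slc4a4*, had treatment log2 fold changes of 0.90, 0.55 and 0.61, and the 7 without one ranged from 0.15 to 0.74. The searched 3′UTRs ran from 153 bases in *Slc34a3* to 4183 in *Slc4a4*, and their length was not taken into account.

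The acid-base carriers were also lower. *Slc9a3* encodes NHE3, the luminal sodium-proton exchanger through which most bicarbonate is reclaimed, and lies at chr13:74121457-74169442 (+). Its CPM were 48.0, 66.0 and 123 in UNT, 4.85, 22.1 and 33.7 in PBS, and 23.6, 31.2 and 41.6 in RGLS4326 mice. The PBS mice were spread over 6.96-fold, the widest of the 10 genes, and the RGLS4326 mice over 1.76-fold. *Slc9a3* fell by 1.94 ± 0.21 in PBS vs UNT (adjusted p = 2.34e-10) and rose by 0.69 ± 0.21 in RGLS4326 vs PBS (adjusted p = 0.0147).

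*Slc4a4* encodes NBCe1, the basolateral sodium-bicarbonate cotransporter, and lies at chr5:88886818-89239653 (+). CPM of 777, 951 and 1494 were measured in UNT, 183, 338 and 649 in PBS, and 416, 582 and 717 in RGLS4326 mice. Only 2 treated mice exceeded the highest PBS mouse, while all 11 were above the PBS median. The log2 fold change was -1.46 ± 0.17 in PBS vs UNT (adjusted p = 5.18e-10) and 0.61 ± 0.17 in RGLS4326 vs PBS (adjusted p = 0.00763).

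The *Slc13* genes moved apart. *Slc13a3* encodes NaDC3, a sodium-dicarboxylate cotransporter that loads the cell with the substrates exchanged by organic anion carriers, and lies at chr2:165405028-165473230 (-). Its CPM were 697, 889 and 1018 in UNT, 38.3, 118 and 235 in PBS, and 103, 164 and 255 in RGLS4326 mice. *Slc13a3* fell by 2.85 ± 0.23 in PBS vs UNT (adjusted p = 9.11e-14). The log2 fold change of 0.49 ± 0.22 in RGLS4326 vs PBS was not called (adjusted p = 0.0734), and it was called when PBS replicate 1, 5 or 7 was left out (adjusted p = 0.043, 0.0492 and 0.0186).

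*Slc13a1* encodes NaS1, the luminal sodium-sulfate cotransporter, and lies at chr6:24088283-24168092 (-). Unlike the other 9, its knockout mice overlapped the UNT mice, with CPM of 193, 249.8 and 344 in UNT, 207, 280.1 and 511 in PBS, and 248, 423 and 475 in RGLS4326 mice. In PBS, 3 of 11 mice lay above the highest UNT mouse, and in RGLS4326, 7 of 11 did. The log2 fold change was 0.29 ± 0.14 in PBS vs UNT (adjusted p = 0.0546) and 0.32 ± 0.14 in RGLS4326 vs PBS (adjusted p = 0.0819). Neither was called, and both calls changed when single libraries were left out. The PBS vs UNT difference was called in 10 of 34 such fits, and the treatment difference without PBS replicate 5 or 7 or RGLS4326 replicate 11 (adjusted p = 0.0232, 0.0208 and 0.0473). In RGLS4326 vs UNT, *Slc13a1* rose by 0.61 ± 0.14 (adjusted p = 0.000205). The table names divide the libraries into 3 sets. Its PBS vs UNT log2 fold change was -0.0072, 0.75 (called, adjusted p = 0.0151) and -0.077 in sets 1, 2 and 3 fitted alone, and its RGLS4326 vs UNT call was lost in set 3 alone (0.21, adjusted p = 0.332).

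**Figure D2:**
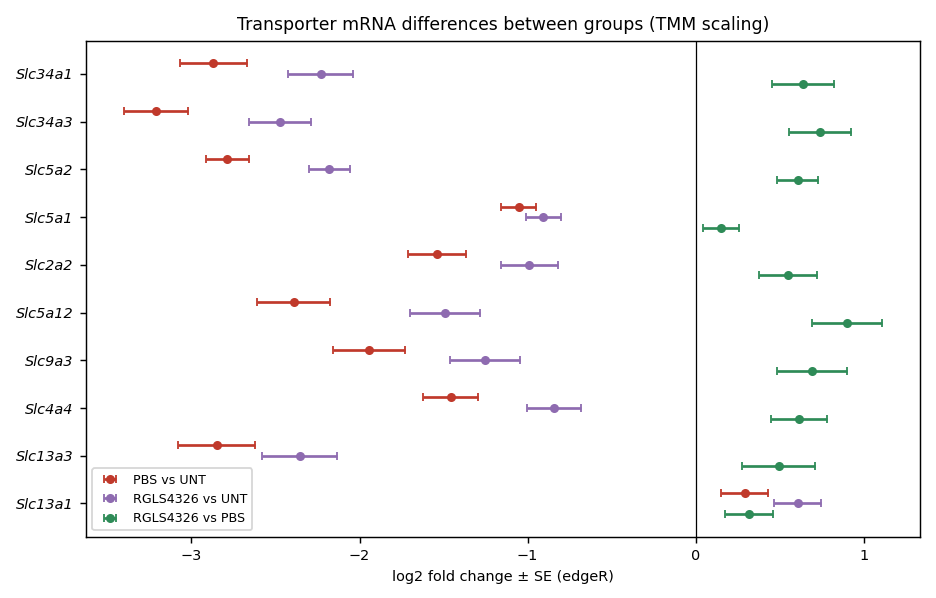
Log2 fold change ± SE from edgeR (TMM scaling) of the 10 transporters in PBS vs UNT, RGLS4326 vs UNT and RGLS4326 vs PBS. The treatment values lie between 0.15 and 0.90 for all 10 genes, and those against UNT are below 0 for 9 genes and above 0 for *Slc13a1*.

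Treatment raised 7 of 10 transporters in RGLS4326 vs PBS and lowered 0, where 15.3% of all tested genes rose and 18.5% fell. All 10 log2 fold changes were above 0, so that by the unadjusted p too no transporter was lower, in edgeR or DESeq2. Their median was 0.61 against 0.00 over all tested genes. The groups overlapped for all 10, and 0.0447% of all tested genes were higher without overlap. The calls depended on how the libraries were described. When the share of reads outside genes entered the model as a covariate, 1 transporter, *Slc5a2*, stayed called (log2 fold change 0.66 ± 0.13, adjusted p = 0.015). The other 6 lost the call, with log2 fold changes of 0.53 to 0.77 (adjusted p of 0.08 to 0.163), against 0.55 to 0.90 without the covariate. The part of this share in the treatment difference was not tested.

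The 3 library sets, told apart by a restart of the numbering in the table names, each held 3 or 4 PBS, 3 or 4 RGLS4326 and 4 UNT mice. In set 1 the RGLS4326 vs PBS log2 fold changes ranged from 0.52 for *Slc5a1* to 1.23 for *Slc5a12*. In set 2 they were smaller, from -0.24 for *Slc5a1* to 0.52 for *Slc5a12*, and in set 3 they ran from 0.18 for *Slc5a1* to 1.065 for *Slc5a12*. *Slc34a1* gave 1.13, 0.17 and 0.67 in sets 1, 2 and 3. Fitted alone, set 1 called 2 transporters, *Slc5a2* and *Slc13a1*, and sets 2 and 3 called 0 by edgeR, with 0 and 7 at an unadjusted p under 0.05. Of all tested genes, 54, 4065 and 0 were called in sets 1, 2 and 3, and in set 3 2826 had an unadjusted p under 0.05. The difference of the treatment effect between sets was called for 0 transporters and for 0% of all tested genes by edgeR. At an unadjusted p under 0.05 it was found for *Slc5a1* (p = 0.0182) and *Slc13a1* (p = 0.0237), and for 7.2% of all tested genes. For PBS vs UNT the same test gave p = 0.0111 for *Slc4a4* and 0.0124 for *Slc13a1* (adjusted p = 0.196 and 0.198, not called), beside 18.3% of all tested genes at an unadjusted p under 0.05, and the log2 fold change of *Slc4a4* was -1.55 ± 0.28, -0.89 ± 0.25 and -2.01 ± 0.25 in sets 1, 2 and 3.

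**Figure D3:**
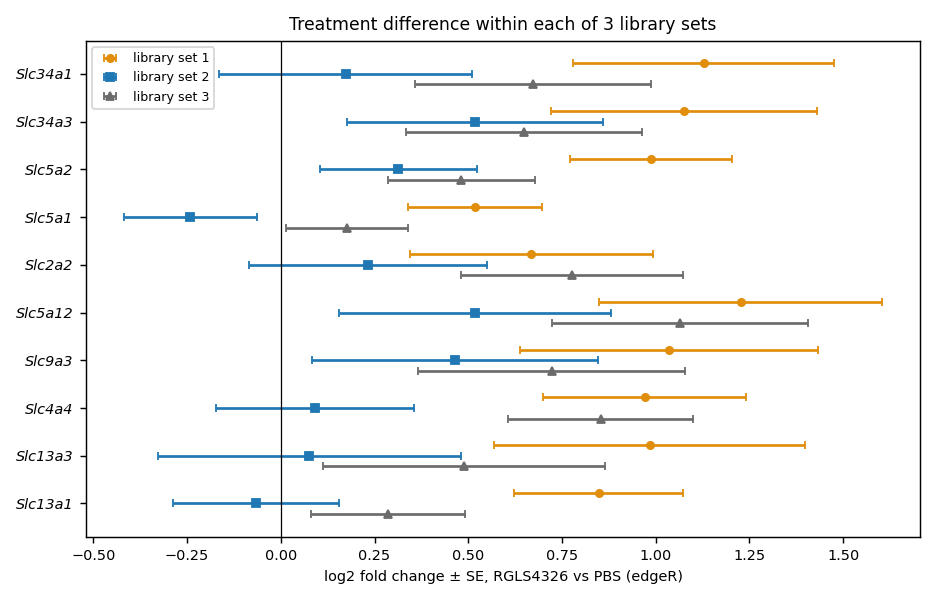
Log2 fold change ± SE (edgeR) of the 10 transporters in RGLS4326 vs PBS within each of 3 library sets, with 3 or 4 mice per group. Values of set 2 are the lowest for all 10 genes, and those of *Slc5a1* and *Slc13a1* there are below 0.

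Treated kidneys remained far from UNT. In RGLS4326 vs UNT, which shares its treated mice with the comparison above, 9 of 10 transporters were lower and 1 higher, where 36.9% of all tested genes were lower and 40.8% higher. The same 9 were lower without overlap, as were 16.1% of all tested genes. *Slc34a3* stood at 18% of the UNT mean, *Slc13a3* at 19.5%, *Slc34a1* at 21.3% and *Slc5a2* at 22.1%. The acid-base carriers were nearer to UNT, with *Slc9a3* at 41.9% and *Slc4a4* at 55.7%, as were *Slc2a2* at 50.3% and *Slc5a1* at 53.4%. *Slc5a12* stood at 35.6% of the UNT mean after treatment and at 19.1% in PBS mice.

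Per kb of the longest transcript, *Slc34a1* was the most abundant of the list in every group, at 1185 ± 125 CPM per kb in UNT (SD, n = 12), 162 ± 75.3 in PBS and 252 ± 55.0 in RGLS4326 mice (n = 11 each). In UNT it was followed by *Slc5a2* (269), *Slc13a3* (249), *Slc5a12* (185), *Slc4a4* (128) and *Slc13a1* (82.5), and then by *Slc5a1* (36.1), *Slc34a3* (35.8), *Slc2a2* (24.8) and *Slc9a3* (14.2). The mean ± SD of neighbours in this order overlapped, except between *Slc34a1* and *Slc5a2*, between *Slc13a1* and *Slc5a1*, and between *Slc2a2* and *Slc9a3*. In PBS mice *Slc13a1* moved to rank 2, at 100.9 ± 33.1 CPM per kb, and its mean ± SD overlapped that of *Slc34a1*. Ranks of *Slc13a1* depend on its model, since over the union of its exons it was rank 7 in UNT rank 2 in PBS and rank 4 in RGLS4326 mice, where it was rank 2 by the longest transcript.

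To ask whether a transporter differed by more or less than other proximal genes, the libraries were scaled to 10 reference genes expressed in this segment, though not necessarily only there, that are not on the list (*Lrp2*, *Cubn*, *Amn*, *Aqp1*, *Slc27a2*, *Miox*, *Fbp1*, *Slc22a6*, *Slc22a8* and *Ggt1*). All 10 reference genes were themselves lower in PBS vs UNT under TMM, by log2 fold changes of -3.64 for *Miox* to -1.07 for *Aqp1*, and the scaling shifted the median of all genes by 2.56. Relative to them, 4 transporters were lower in PBS vs UNT, 5 were higher and *Slc5a12* was not called, where 1.28% of all tested genes were lower and 95.9% higher. *Slc34a3* (-0.90 ± 0.14, adjusted p = 7.12e-08), *Slc13a3* (-0.58 ± 0.14, adjusted p = 7.48e-05), *Slc34a1* (-0.56 ± 0.12, adjusted p = 2.5e-05) and *Slc5a2* (-0.38 ± 0.13, adjusted p = 0.00468) were lower than the reference. With *Lrp2*, *Cubn* and *Amn* alone as the reference, *Slc5a12* was called lower too (-0.41 ± 0.15, adjusted p = 0.0112). The call of *Slc5a2* was lost when *Amn* or *Aqp1* was left out of the reference (adjusted p = 0.0772 and 0.113).

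Higher than the proximal reference in PBS vs UNT were *Slc13a1* (2.73 ± 0.17), *Slc5a1* (1.39 ± 0.14), *Slc4a4* (0.94 ± 0.16), *Slc2a2* (0.81 ± 0.15) and *Slc9a3* (0.41 ± 0.18). The adjusted p of *Slc9a3* was 0.028, and its call was lost with the reference reduced to *Lrp2*, *Cubn* and *Amn* (0.03 ± 0.15, adjusted p = 0.829), without *Miox* or *Slc22a8* in the reference (adjusted p = 0.174 and 0.0918) and without UNT replicate 4 or 9 (adjusted p = 0.0553 and 0.0537). Of the reference genes, 3 were themselves called lower and 3 higher than their common scale, so such departures are not particular to the transporters.

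In RGLS4326 vs PBS relative to the reference, which shifted the median of all genes by -0.58, 3 transporters were higher and 1 lower, where 0.671% of all tested genes were higher and 65.7% lower. Of the 10 reference genes themselves, 1 was called higher and 3 lower on this scale, so such departures are not particular to the transporters. *Slc5a12* (0.53 ± 0.17, adjusted p = 0.00677) and *Slc34a3* (0.40 ± 0.14, adjusted p = 0.0154) were higher, and *Slc34a1* (0.27 ± 0.12, adjusted p = 0.046) and *Slc5a1* (-0.33 ± 0.15, adjusted p = 0.0462) passed narrowly and lost the call in 25 and 20 of 34 fits without 1 library. Both calls were also lost with library set as a term (adjusted p = 0.0541 and 0.0632), and that of *Slc34a1* with *Lrp2*, *Cubn* and *Amn* alone as the reference (0.21 ± 0.12, adjusted p = 0.122). With reads outside genes as a covariate none of the 4 was called by edgeR, with log2 fold changes of 0.39 ± 0.19, 0.34 ± 0.16, 0.22 ± 0.14 and -0.23 ± 0.17 (adjusted p = 0.0616, 0.0582, 0.146 and 0.2). *Slc5a2*, *Slc2a2*, *Slc9a3* and *Slc4a4*, which rose under TMM, were not called relative to the reference, with log2 fold changes of 0.16 to 0.31. In RGLS4326 vs UNT relative to the reference (median shift 1.98), *Slc34a3* (-0.50 ± 0.14), *Slc13a3* (-0.43 ± 0.13) and *Slc34a1* (-0.29 ± 0.12) were lower, *Slc5a2* was not called and the other 6 were higher, where 1.13% of all tested genes were lower and 95.6% higher. The reference genes had 3 called lower and 3 higher in this comparison. There the call of *Slc34a1* was lost without *Cubn*, *Amn* or *Aqp1* in the reference (adjusted p = 0.0611, 0.107 and 0.165) and with reads outside genes as a covariate (adjusted p = 0.101). *Slc5a2* was called without *Miox*, *Slc22a6* or *Slc22a8* (adjusted p = 0.00982, 0.0312 and 0.0135). With the reference reduced to *Lrp2*, *Cubn* and *Amn*, *Slc5a2* was called lower (-0.62 ± 0.12, adjusted p = 3.19e-06) and *Slc5a12* was no longer called (0.08 ± 0.15, adjusted p = 0.62, against 0.48 and 0.0061 with all 10).

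**Figure D4:**
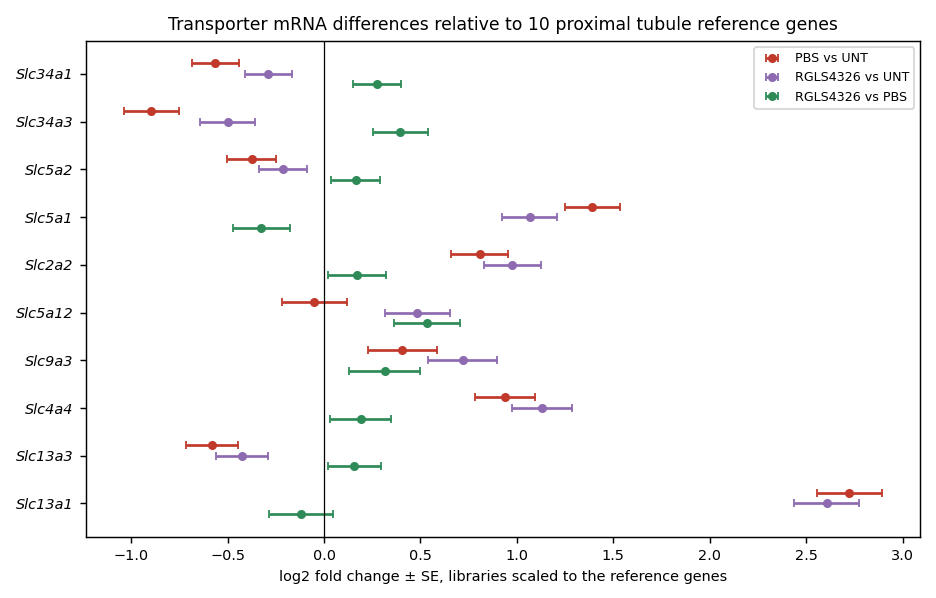
Log2 fold change ± SE (edgeR) of the 10 transporters after scaling each library to 10 proximal tubule reference genes. In PBS vs UNT, values run from -0.90 for *Slc34a3* to 2.73 for *Slc13a1*, and in RGLS4326 vs PBS from -0.33 for *Slc5a1* to 0.53 for *Slc5a12*.

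Levels within a mouse gave the same contrast between related carriers without any scaling. The ratio of *Slc5a2* to *Slc5a1* counts was 4.16 ± 0.44 in UNT (SD, n = 12), 1.26 ± 0.27 in PBS and 1.73 ± 0.24 in RGLS4326 mice (n = 11 each), and no knockout mouse reached the lowest UNT ratio of 3.26. For *Slc13a1* over *Slc13a3* the ratio was 0.30 ± 0.07 in UNT, 3.17 ± 1.40 in PBS and 2.51 ± 0.91 in RGLS4326 mice, and the lowest knockout ratio of 1.34 lay above the highest UNT ratio of 0.42. *Slc34a1* over *Slc34a3* changed less, at 61.4 ± 6.9, 78.0 ± 13.3 and 72.0 ± 12.8, with overlapping groups. These ratios were chosen after the values were seen and were given no test.

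The PBS mice differed from one another more than the treated mice did. The coefficient of variation was higher in PBS than in UNT for 10 of 10 transporters (60% of all tested genes) and lower in RGLS4326 than in PBS for 10 of 10 (55.8% of all tested genes). Its median over the transporters was 18.3% in UNT, 45.9% in PBS and 16.3% in RGLS4326 mice, against 13.9%, 16.4% and 15.2% over all tested genes. The pattern was not particular to the transporters. Each proximal reference gene was also more variable in PBS (22.3 to 55.6%) than in UNT (9.74 to 19.4%) or RGLS4326 mice (15.4 to 34%). PBS replicate 4 was the lowest PBS mouse for 4 genes (*Slc34a1*, *Slc34a3*, *Slc5a2* and *Slc13a3*), and PBS replicate 7 the highest for 6. After the group means were removed, each transporter varied with the mean of the other 9 across the 34 mice, with Pearson r from 0.622 for *Slc13a1* to 0.875 for *Slc34a1*. These points share libraries and scaling, the PBS mice with their wider spread weigh most in r, and r is given as a description. The 5 genes outside the list that varied most like the transporters by the same measure were *Slc5a8* (r = 0.943), *Mgam* (0.937), *Cubn* (0.934), *Slc23a1* (0.933) and *Enpp6* (0.933).

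Partners and regulators of phosphate transport were described from a list of 10 genes, of which 7 fell and 2 rose in PBS vs UNT. Of all tested genes, 39% fell and 43.1% rose. *Pdzk1*, a scaffold that binds the phosphate carriers, fell by 2.36 ± 0.16 (adjusted p = 1.07e-15), *Kl*, the FGF23 co-receptor Klotho, by 2.35 ± 0.13 (adjusted p = 2.19e-18) and *Pth1r*, the parathyroid hormone receptor, by 1.70 ± 0.11 (adjusted p = 1.26e-16). *Slc34a2*, the phosphate carrier best known from lung and intestine, went the other way, from 3.35 to 8.10 CPM in UNT to 24.4 to 49.4 in PBS (log2 fold change 2.71 ± 0.16, adjusted p = 9.02e-18). In RGLS4326 vs PBS, 4 of the 10 rose (15.3% of all tested genes did), *Kl* (0.43 ± 0.12), *Pdzk1* (0.43 ± 0.15), *Slc20a1* (0.31 ± 0.12) and *Xpr1* (0.29 ± 0.08), and *Slc34a2* gave -0.06 ± 0.15 (adjusted p = 0.774).

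Of 13 partners in glucose and lactate handling, 9 fell and 2 rose in PBS vs UNT (39% and 43.1% of all tested genes). The monocarboxylate carrier *Slc5a8* (-2.60 ± 0.26), *Slc5a9* (-2.16 ± 0.13), which carries mannose and glucose, and the fructose carrier *Slc2a5* (-2.12 ± 0.20) fell most, and *Slc2a1*, the ubiquitous GLUT1 (0.56 ± 0.08), and *Slc16a3*, the lactate exporter MCT4 (2.52 ± 0.20), rose. *Slc16a3* had means of 1.81 CPM in UNT and 10.5 in PBS mice. With RGLS4326, 3 of the 13 rose and 3 fell, shares near those of all tested genes (15.3 and 18.5%). Higher were *Slc5a8* (0.70 ± 0.25), *Slc5a9* (0.46 ± 0.13) and *Slc16a7* (0.37 ± 0.10), and lower were *Slc16a3* (-0.49 ± 0.19), *Pdzk1ip1* (-0.41 ± 0.10) and *Slc2a1* (-0.27 ± 0.09). *Pdzk1ip1* encodes MAP17, a partner of SGLT2, and unlike *Slc5a2* it was not called in PBS vs UNT (-0.14 ± 0.10, adjusted p = 0.187).

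Among 12 acid-base partners, 9 fell and 1 rose in PBS vs UNT (39% and 43.1% of all tested genes). *Pck1*, a key enzyme of gluconeogenesis and ammonia production, fell by 3.21 ± 0.33, from a median of 5164 CPM in UNT to 506.8 in PBS mice. The carbonic anhydrases *Car14* (-2.79 ± 0.19) and *Car4* (-1.76 ± 0.14) of the cell membrane fell more than the cytosolic *Car2* (-0.33 ± 0.09). RGLS4326 raised 2 of the 12, a share near the 15.3% of all tested genes, *Car14* (0.46 ± 0.18) and *Car4* (0.35 ± 0.14).

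In the list for sulfate and dicarboxylates, 8 of 9 genes were tested, of which 6 fell and 1 rose in PBS vs UNT (39% and 43.1% of all tested genes). *Slc26a1*, the basolateral sulfate exchanger that works with *Slc13a1*, fell by 1.43 ± 0.12 (adjusted p = 9.14e-14), and *Papss2*, which activates sulfate for transfer, by 2.13 ± 0.16. *Slc26a2*, a widely expressed sulfate carrier, rose by 1.57 ± 0.13. *Slc13a2*, the luminal dicarboxylate carrier, fell by 2.28 ± 0.17. After RGLS4326, 2 of the 8 rose and 0 fell, beside 15.3% and 18.5% of all tested genes, *Papss2* (0.46 ± 0.15) and *Slc26a1* (0.30 ± 0.12), and none fell at an unadjusted p under 0.05 either.

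Of 5 transcription factors and coactivators of proximal metabolism and transport, 5 fell in PBS vs UNT, as did 39% of all tested genes. *Hnf4a*, a nuclear receptor that maintains proximal tubule genes, fell by 1.49 ± 0.13, where *Slc34a1* fell by 2.87 and *Slc5a2* by 2.79. In RGLS4326 vs PBS, where 15.3% of all tested genes rose, *Ppara* (0.61 ± 0.16, adjusted p = 0.00806) and *Ppargc1a* (0.53 ± 0.14, adjusted p = 0.00639) rose, and *Hnf4a* (0.28 ± 0.13, adjusted p = 0.0844) was not called.

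**Figure D5:**
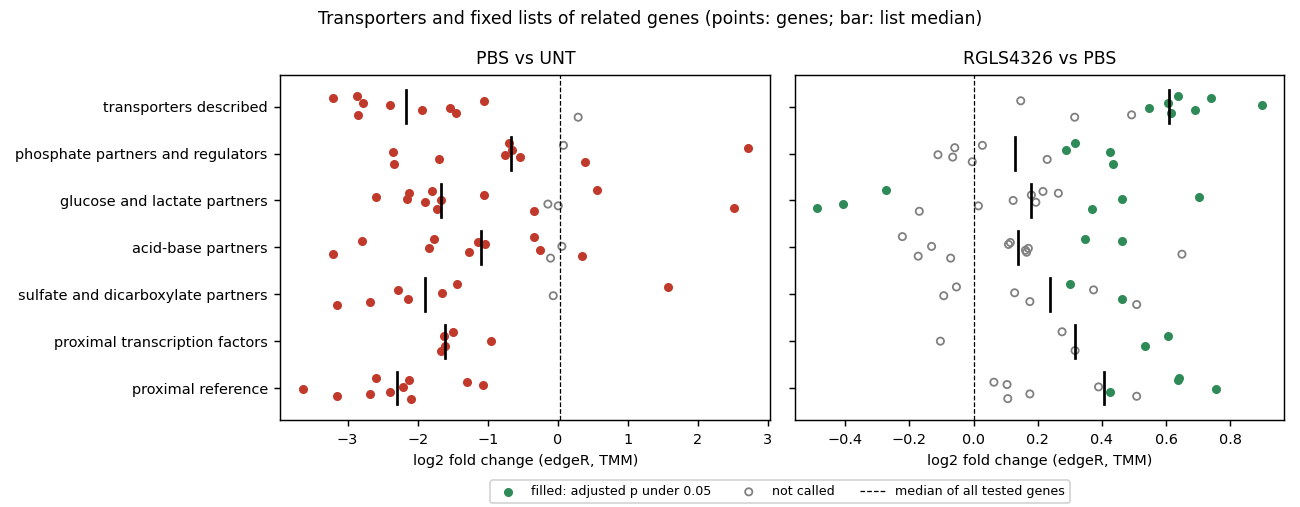
Log2 fold changes (edgeR, TMM) of the 10 transporters and of 6 lists in PBS vs UNT and RGLS4326 vs PBS. Points are genes, filled where called and open where not, the bar is the list median and the dashed line the median of all tested genes, and the transporter median is -2.17 on the left and 0.61 on the right.

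Markers of other cells also differed between the groups, some in the direction of the transporters and some in the opposite one. Their counts stand beside 39% of all tested genes lower and 43.1% higher in PBS vs UNT, and 18.5% lower and 15.3% higher in RGLS4326 vs PBS. In PBS vs UNT, 4 of 4 injury markers (*Havcr1*, *Lcn2*, *Vcam1*, *Krt20*) rose, their summed level going from 25.4 to 40.3 CPM in UNT to 869 to 1973 in PBS, and so did 4 of 4 fibroblast markers (380.0 to 981 against 2259 to 4861), 4 of 4 macrophage and leukocyte markers (72.7 to 122 against 269 to 540) and 4 of 4 collecting duct markers (333 to 609 against 390.0 to 1619). Of all markers counted, *Pvalb* of the distal convoluted tubule was the one with libraries at 0, in 6 of 11 PBS and 2 of 11 RGLS4326 mice. Lower in PBS were 10 of 10 proximal reference genes (11190 to 15260 CPM in UNT against 1444 to 4121), 3 of 3 podocyte, 3 of 3 intercalated, 3 of 3 distal convoluted tubule and 3 of 4 thick ascending limb markers, so that lower transcripts were not confined to the proximal list. The endothelial list had 2 genes higher and 1 lower. In RGLS4326 vs PBS, where 7 of 10 transporters rose, 4 of 10 proximal reference genes rose (2421 to 4261 CPM in RGLS4326), 2 of 4 collecting duct markers fell (235 to 1377) and 1 of 4 injury markers fell, *Lcn2* (529 to 1587 for the list). Also higher were 3 of 3 podocyte markers, 2 of 3 endothelial markers, *Slc12a3* of 3 distal convoluted tubule markers (0.62 ± 0.13), and *Umod* and *Slc12a1* of 4 thick ascending limb markers, of which *Cldn16* fell. *Cd68* fell among 4 macrophage and leukocyte markers (-0.80 ± 0.17), and no fibroblast or intercalated cell marker was called by edgeR. Their part in the transporter differences was not tested.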

How the data were processed

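Kidney mRNA of 34 mice was profiled in 3 groups (UNT, n = 12, PBS and RGLS4326, n = 11 each), 1 deposited table per mouse. The authors made stranded mRNA libraries, trimmed reads with Trim Galore, aligned them with STAR to GRCm38 (mm10), assigned uniquely aligned reads to genes by HTSeq (version 0.6.1 in the submitters' processing notes), and deposited the raw counts per gene symbol with no normalization or pooling. The annotation, and whether counting used strand, were not given in the sources used here, so *Slc34a1* and *Slc5a2*, whose exons overlap a gene on the opposite strand, are uncertain to that extent. No 2 tables were identical (0 pairs), and 0 columns of other samples were present.

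Counts were scaled by TMM, filtered with filterByExpr to 15644 genes and tested with edgeR 4.0.16 (quasi-likelihood, R 4.3.3) in a fit of all 34 libraries with 3 groups and no covariate. A second fit replaced TMM by the geometric mean of 10 proximal reference genes. In simulated data for RGLS4326 vs PBS (15579 genes), 94 of 99 genes changed by 1 on the log2 scale and 59 of 99 changed by 0.5 were recovered, with 6 false calls among 15381. Each simulated gene had the same spread in all groups, and no library sets or differences in reads outside genes were simulated. The rates therefore need not hold for the transporters, whose spread differed between the groups. All transporters were named in each comparison, partner genes came from lists of genes, and the 5 most similar genes were those with the highest within-group Pearson r of log2(CPM + 1) with the transporters' mean. Some genes of the acid-base and transcription factor lists are not reported here, for a reason unrelated to their values, and the counts of those lists are over the remaining genes. Members, lists and tests were chosen with earlier results of these data known. Alternatives were RLE and upper-quartile scaling, DESeq2 1.42.0, no filter, 2-group fits, library set, reads outside genes, the replicate number, each library left out and changed reference lists; those that leave a library or a reference gene out of the reference fit were chosen after seeing the data. Sequences came from GENCODE M21 (GRCm38) and RefSeq (GRCm38.p6) by symbol. Python 3.11.15 with pandas 2.3.3 and matplotlib 3.10.9 made summaries and figures.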

Additional observations from a re-analysis of the deposited data

How the results depend on the processing

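Over the alternatives to the fit with TMM, 9 to 10 transporters were called in PBS vs UNT (9 as reported) and 9 to 10 in RGLS4326 vs UNT (10 as reported), where 12841 and 12157 of 15644 tested genes were called in either direction. The 7 calls in RGLS4326 vs PBS became 2 in library set 1 alone (54 of all tested genes called), 0 in set 2 alone (4065 of all tested genes called, 0 transporters at an unadjusted p under 0.05), 0 in set 3 alone (0 of all tested genes called by edgeR, 2826 at an unadjusted p under 0.05), and 1 with reads outside genes as a covariate (89 of all tested genes, against 5280 without it). Sets hold 3 or 4 mice a group, and the cause was not tested for the sets or the covariate. With each library left out in turn, the transporters called were 9 to 10, 7 to 9 and 10 to 10 in PBS vs UNT, RGLS4326 vs PBS and RGLS4326 vs UNT, and all tested genes 12712 to 12916, 4023 to 6209 and 12008 to 12379.

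*Slc13a1* in PBS vs UNT was -0.0072 in set 1 alone and -0.077 in set 3 alone, and it was called in set 2 alone (0.75, adjusted p = 0.0151) and with upper-quartile factors (0.31, adjusted p = 0.0376). In RGLS4326 vs PBS within set 2 alone, *Slc5a1* was -0.23 and *Slc13a1* -0.055. *Slc5a12* relative to the proximal reference in PBS vs UNT, -0.05 as reported, was -0.41 and called lower with *Lrp2*, *Cubn* and *Amn* alone as the reference (adjusted p = 0.0112), 0.0007305 with the replicate block, 0.23 with reads outside genes as a covariate, 0.081 without *Amn* and 0.10 without *Aqp1* in the reference, and between -0.109 and 0.036 with each library left out. *Slc13a1* in RGLS4326 vs UNT was not called in set 3 alone (0.21, adjusted p = 0.332).

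The labels do not say whether replicate numbers pair the mice. The 33 same-numbered pairs gave correlations of -0.415 to 0.454, and 10 were over 0.1. Of 33, 5 correlated best with their own number. These correlations cannot show whether same-numbered mice were related. With the replicate block, 9, 7 and 10 transporters were called, as without it, and 12781, 5098 and 12162 of all tested genes. Relative to the reference the block removed the calls of *Slc34a1*, *Slc34a3* and *Slc5a1* in RGLS4326 vs PBS (adjusted p = 0.108, 0.0595 and 0.105) and of *Slc34a1* in RGLS4326 vs UNT (adjusted p = 0.0704). Each transporter had at least 105 counts per library, so counting error was small beside the spread between mice.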
